A study of Rattus norvegicus with 11 samples.

Results

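The genes described here are the cytochrome P450 genes measured in rat lung alveolar epithelial cells. They were taken as the probe sets annotated to exactly 1 gene whose symbol begins with Cyp and a digit, without Cyp51, and each gene was represented by its probe set of highest mean signal on the 11 arrays. This gave 48 P450 genes of 4736 measured genes, drawn from 79 single-gene probe sets. A further 13 probe sets were annotated to several P450 genes at once and were not used. All 48 Entrez gene identifiers were found in the RefSeq gene table with the same symbol.

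RNA was hybridised to 11 Affymetrix rat expression arrays. Of these, 4 arrays carried RNA of type I (TI) cells and 4 that of type II (TII) cells, both freshly isolated at day 0, and 3 carried RNA of TII cells cultured until day 7. The rats' strain, age and treatment, the isolation procedure and the culture conditions are not described in the labels. The groups come from the sample descriptions, because the source field names TI cells for every array. Whether the replicate arrays stem from different rats is not stated in the labels, so the p-values rest on array-to-array spread, which may be technical. Values are log2 signals as deposited, and each difference is a log2 difference with the standard error (SE) of a limma fit over all 11 arrays. A probe set was called at a Benjamini-Hochberg adjusted p under 0.05 over 8740 probe sets.

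Type I cells are the thin cells that cover most of the alveolar surface, and type II cells are the cuboidal cells that make surfactant and can give rise to type I cells. P450 enzymes are haem proteins that insert an oxygen atom into their substrates. Those of the endoplasmic reticulum receive electrons from the reductase Por, and those of mitochondria receive them through ferredoxin. Families 1 to 3 mostly oxidise drugs, solvents and other foreign compounds, family 4 oxidises fatty acids and eicosanoids, and the higher-numbered families act on sterols, bile acids, vitamin D, retinoids and steroid hormones. In lung, P450 enzymes of the 2B, 2F and 4B subfamilies are best known from the club cells of the airways, and the 2B and 4B enzymes also from alveolar type II cells. They are known there for turning inhaled or circulating compounds into reactive products.

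The labelled cell types were checked against their markers. All 6 measured type I markers were called higher in fresh TI than in fresh TII cells, and all 8 measured type II markers were called lower. In culture, all 8 type II markers fell and 4 of the 6 type I markers rose. Arrays within a group correlated at Pearson r of 0.978 to 0.996 for fresh TI, 0.995 to 0.998 for fresh TII and 0.986 to 0.993 for cultured TII cells. Fresh TI arrays varied most in their type II marker signal: the summed linear signal of the 8 type II markers ran from 3254 to 9392 over the fresh TI arrays, from 26550 to 28660 over the fresh TII arrays and from 606.9 to 956 over the cultured arrays.

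Of the P450 genes, 6 differed at least 2-fold between the fresh cell types, in both directions: Cyp2b2 and Cyp2b15 were higher in TI cells, while Cyp2f4, Cyp2a3, Cyp3a9 and Cyp2c23 were higher in TII cells. In culture, 6 genes fell at least 2-fold from the fresh TII level, namely Cyp2f4, Cyp4b1, Cyp2a3, Cyp2b2, Cyp2c23 and Cyp3a9. Cyp2b15 and Cyp4a8 fell by less, and Cyp1b1 rose. Most of the other genes were a little higher in fresh TI cells, and none of them passed the test in culture. A bulk signal cannot tell fewer cells of a type from less RNA per cell.

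Between fresh TI and fresh TII cells, 36 of the 48 P450 genes were called higher in TI, 4 were called lower and 8 were not called. Over all 4736 genes, 33.0% were called higher and 21.2% lower. At 2-fold or more, 2 P450 genes were higher and 4 lower, beside 2.01% and 5.0% of all genes. The median difference of the P450 genes was 0.318, beside 0.111 over all genes. Between cultured and fresh TII cells, 1 P450 gene was called higher, 8 lower and 39 were not called, where 20.5% of all genes were called higher and 14.0% lower. No P450 gene was called at least 2-fold higher and 6 were called at least 2-fold lower, beside 4.62% and 4.05% of all genes. Between fresh TI and cultured TII cells, 36 P450 genes were called higher in TI, 1 was called lower and 11 were not called, beside 34.2% and 25.8% of all genes. At 2-fold or more, 3 were higher and 0 lower, beside 1.92% and 6.76% of all genes. The comparisons share arrays, so their counts are not independent of each other.

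**Figure D1:**
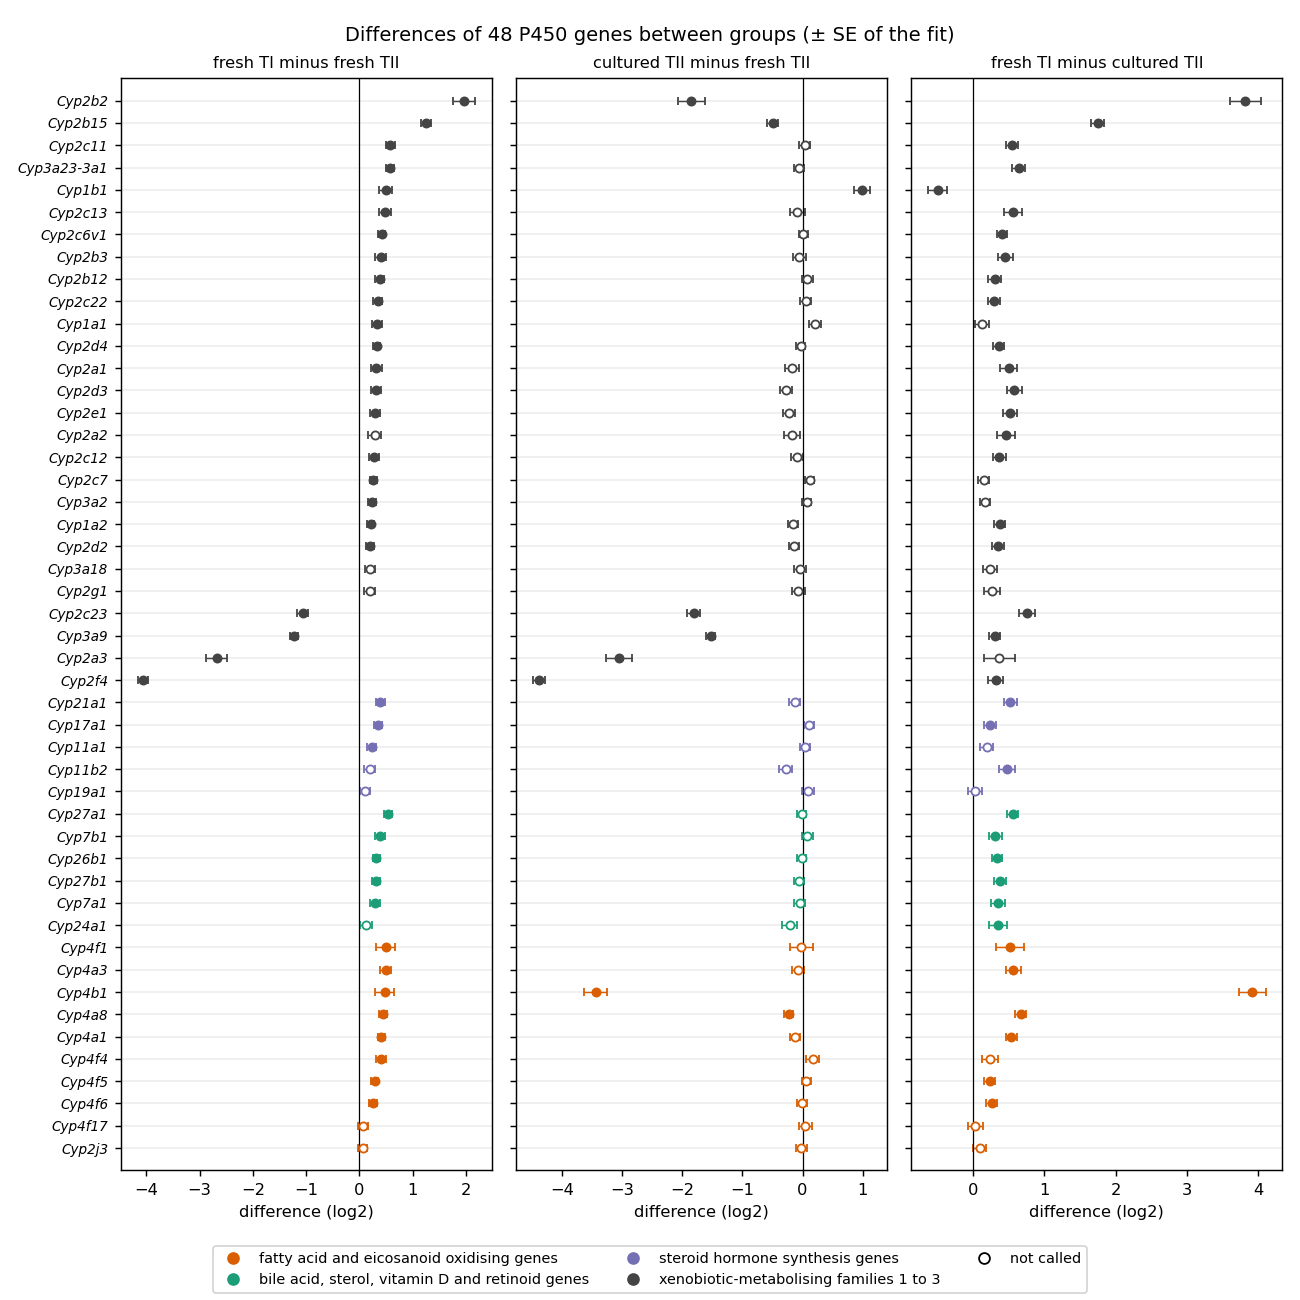
Log2 difference of each of the 48 P450 genes in the 3 comparisons, ordered by role and by the fresh TI minus fresh TII difference. Points are estimates and bars are ± SE of the limma fit over 11 arrays. Filled points were called at an adjusted p under 0.05 and open points were not. A few genes lie far from 0, down to -4.07 for Cyp2f4 and up to 1.97 for Cyp2b2 in fresh TI minus fresh TII cells, and most lie between 0 and 0.6.

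Roles were assigned by gene symbol. Cyp2j3 was placed with the fatty acid and eicosanoid genes, while Cyp2c23, also an arachidonic acid epoxygenase, stayed with families 1 to 3. So grouped, the xenobiotic-metabolising families 1 to 3 held 27 of the 48 genes and 5 of the 6 that fell at least 2-fold in culture. Between the fresh cell types, 20 of the 27 were called higher in TI and 4 lower (all genes: 33.0% and 21.2%), and in culture 1 was called higher and 6 lower (all genes: 20.5% and 14.0%). Their median differences were 0.306 in fresh TI minus fresh TII cells and -0.0864 in cultured minus fresh TII cells. The 250 bases before the annotated start site are shown for 5 P450 genes so that the sequences of neighbours that moved in opposite directions can be read side by side with that of the gene that rose in culture. The sequences are from RefSeq on build GRCr8, written 5′ to 3′ on the gene's own strand, and the capitals mark matches to the motifs searched, on either strand. The Ahr core, bound by the aryl hydrocarbon receptor, was searched as GCGTG and the TATA box as TATAAA. The motif of C/EBP factors was searched as TTGCNNAA. That of FOXA factors was searched as TGTTTAC and that of NKX2-1 as CAAGTG.
Cyp2f4: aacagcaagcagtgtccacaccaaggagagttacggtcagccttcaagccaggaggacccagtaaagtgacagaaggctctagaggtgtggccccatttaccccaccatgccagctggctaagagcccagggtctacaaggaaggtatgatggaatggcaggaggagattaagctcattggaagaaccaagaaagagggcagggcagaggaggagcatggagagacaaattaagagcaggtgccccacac
Cyp2a3: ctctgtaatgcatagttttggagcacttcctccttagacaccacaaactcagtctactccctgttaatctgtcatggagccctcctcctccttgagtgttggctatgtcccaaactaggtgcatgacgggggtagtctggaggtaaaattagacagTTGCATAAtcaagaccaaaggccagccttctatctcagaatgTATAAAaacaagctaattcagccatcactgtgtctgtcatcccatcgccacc
Cyp2b2: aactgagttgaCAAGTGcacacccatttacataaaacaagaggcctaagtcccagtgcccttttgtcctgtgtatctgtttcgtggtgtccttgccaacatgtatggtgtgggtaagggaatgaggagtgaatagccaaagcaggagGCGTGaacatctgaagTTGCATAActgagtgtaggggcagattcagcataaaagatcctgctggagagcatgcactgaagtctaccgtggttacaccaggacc
Cyp2b15: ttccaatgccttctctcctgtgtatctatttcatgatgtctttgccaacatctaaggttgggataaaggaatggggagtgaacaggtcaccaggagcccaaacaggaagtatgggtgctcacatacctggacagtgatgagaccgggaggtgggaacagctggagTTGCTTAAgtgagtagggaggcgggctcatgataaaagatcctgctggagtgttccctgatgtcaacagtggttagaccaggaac
Cyp1b1: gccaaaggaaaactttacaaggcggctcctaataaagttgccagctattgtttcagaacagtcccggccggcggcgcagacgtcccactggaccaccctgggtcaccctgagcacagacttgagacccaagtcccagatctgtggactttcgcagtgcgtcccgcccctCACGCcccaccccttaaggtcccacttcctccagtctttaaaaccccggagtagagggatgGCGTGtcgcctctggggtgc
The windows lie at chr1:91543518-91543767 for Cyp2f4, chr1:91299334-91299583 for Cyp2a3, chr1:90722031-90722280 for Cyp2b2, chr1:91221615-91221864 for Cyp2b15 and chr6:21094315-21094564 for Cyp1b1, all on the plus strand. The Cyp2a3 window held a C/EBP match 94 bases before the start and a TATA box 52 bases before it. The Cyp2b2 window held an NKX2-1 match at 239 bases, an Ahr core at 103 bases and a C/EBP match at 87 bases before the start. The Cyp2b15 window held a C/EBP match at 85 bases. The Cyp1b1 window held Ahr cores at 81 and 20 bases, and its GC content of 59.2% compares with a median of 51.2% over 33469 rat promoter windows of this length. The Cyp2f4 window held none of the 5 motifs. Cyp2b2 and Cyp2b15 shared 53.8% of 305 alignment columns, beside 53.4% for Cyp2a3 and Cyp2b2 and 52.9% for Cyp2f4 and Cyp2b2. Cyp2f4 and Cyp1b1, of different families, still shared 47.5%. The alignments are gapped to more columns than the 250 bases of a window. These shares therefore cannot tell related windows from unrelated ones.

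Cyp2f4 (Entrez gene 54246) encodes a lung P450 known for oxidising naphthalene and other small aromatic compounds. Its signal was 6.12, 5.82, 5.90 and 6.13 on the fresh TI arrays, 10.27, 10.08, 9.94 and 9.97 on the fresh TII arrays, and 5.71, 5.71 and 5.61 on the cultured TII arrays. Every fresh TII array lay far above every other array. The signal was 16.8-fold lower in fresh TI than in fresh TII cells (-4.07 ± 0.094, adjusted p = 2.32e-11). In culture it fell 20.9-fold (-4.39 ± 0.102, adjusted p = 1.09e-11). Fresh TI arrays were slightly above the cultured arrays, by 0.315 ± 0.102 (adjusted p = 0.0177), with no overlap. That small difference lost its call without fresh TI array 1 (0.272, adjusted p = 0.0507) and without cultured array 3 (0.28, adjusted p = 0.0632).

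Cyp2a3 (Entrez gene 24299) encodes a P450 of the rat airways and nasal mucosa that oxidises coumarin-like and tobacco-derived compounds. Its signal was 5.97, 5.66, 5.63 and 5.94 on the fresh TI arrays, 9.08, 7.96, 8.74 and 8.13 on the fresh TII arrays, and 5.33, 5.504 and 5.46 on the cultured arrays. As with Cyp2f4, the fresh TII arrays were the high ones and did not overlap the others, but they spread over more than 1 log2 unit. The signal was 6.41-fold lower in fresh TI cells (-2.68 ± 0.2, adjusted p = 2.79e-07) and 8.27-fold lower in cultured TII cells (-3.05 ± 0.216, adjusted p = 1.59e-07) than in fresh TII cells. Fresh TI and cultured cells differed by 0.367 ± 0.216, which was not called (adjusted p = 0.155). A second Cyp2a3 probe set gave -4.07 ± 0.243 in fresh TI minus fresh TII cells and -3.84 ± 0.263 in cultured minus fresh TII cells, with adjusted p of 3.36e-08 and 1.12e-07.

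Some markers of airway secretory (club) cells moved with these genes. Of 17 markers on that list, which holds no P450 gene, 5 were measured and 4 lay above the array median. Their summed linear signal was 3429 to 4130 on the fresh TII arrays, 559.3 to 665.1 on the fresh TI arrays and 434.1 to 694.7 on the cultured arrays. Scgb1a1, the main secretory protein of club cells, lay between 10.84 and 11.15 on fresh TII arrays, between 7.42 and 7.89 on fresh TI arrays and between 8.06 and 8.63 on cultured arrays. Scgb1a1 and Aldh1a1 carried most of the fresh TII sum. Of the 5 markers, 3 were called lower in fresh TI than in fresh TII cells (Scgb1a1, Aldh1a1 and Ces1d) and 2 higher (Muc5ac and Reg3g). Over all genes, 21.2% were called lower and 33.0% higher. The same 3 were called lower in culture, beside 14.0% of all genes, and Muc5ac and Reg3g were not called there. Ces1d differed by -0.549 between the fresh cell types and by -4.85 in culture. Against cultured cells, fresh TI cells had 3 markers called higher and 1 lower, beside 34.2% and 25.8% of all genes. The part of such cells in the Cyp2f4 and Cyp2a3 differences was not tested.

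Cyp2b2 (Entrez gene 361523) encodes a phenobarbital-inducible drug-metabolising enzyme. It was the P450 gene that rose furthest above the fresh TII level in TI cells. Its signal was 11.50, 11.46, 11.60 and 11.47 on the fresh TI arrays, 9.58, 9.35, 9.83 and 9.38 on the fresh TII arrays, and 8.13, 7.97 and 6.95 on the cultured arrays. The 3 groups did not overlap, and 1 cultured array lay about 1 unit below the other two. The signal was 3.92-fold higher in fresh TI than in fresh TII cells (1.97 ± 0.206, adjusted p = 6.65e-06). In culture it fell 3.61-fold (-1.85 ± 0.223, adjusted p = 2.22e-05), and fresh TI cells were 14.2-fold above cultured cells (3.82 ± 0.223, adjusted p = 3.24e-08). A second probe set gave 1.82, -1.24 and 3.06 in the same order, each called. Cyp2b1 is a near-identical neighbour of Cyp2b2 and some probe sets are annotated to both, so these signals cannot be assigned to 1 copy with certainty.

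Cyp2b15 (Entrez gene 685222) is a less studied member of the same subfamily and was called in the same directions. Its signal was 8.66, 8.55, 8.55 and 8.82 on the fresh TI arrays, 7.39, 7.31, 7.55 and 7.33 on the fresh TII arrays, and 6.89, 7.03 and 6.79 on the cultured arrays. The groups did not overlap. Fresh TI cells were 2.38-fold above fresh TII cells (1.25 ± 0.0858, adjusted p = 1.22e-07), and cultured cells lay below fresh TII cells by less than 2-fold (-0.494 ± 0.0927, adjusted p = 0.000925). The difference between fresh TI and cultured cells was 1.75 ± 0.0927 (adjusted p = 1.55e-08). Its probe set may also bind other 2b transcripts, since its name carries the array maker's mark for a set shared by a gene family.

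**Figure D2:**
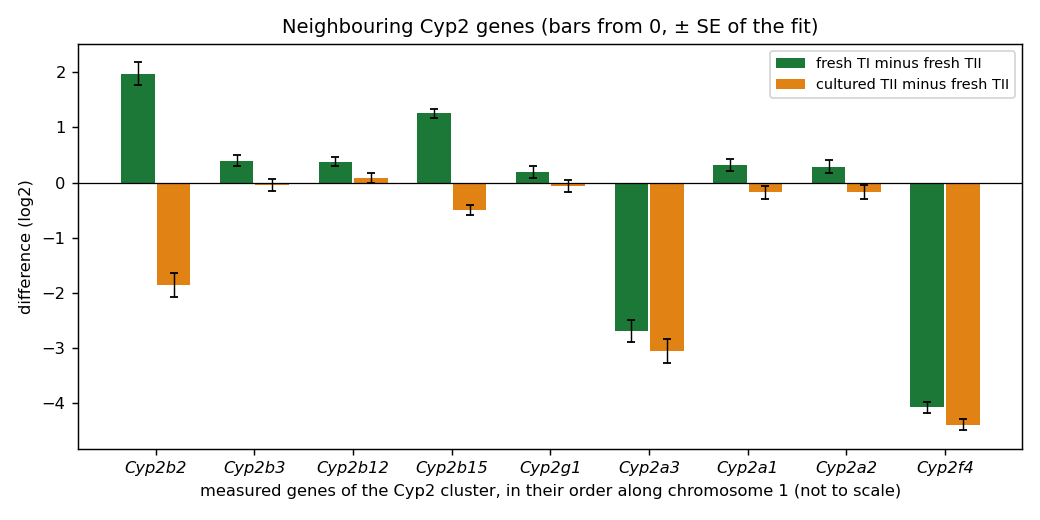
Log2 difference of the 9 measured genes of the Cyp2a, Cyp2b, Cyp2f and Cyp2g cluster, in their order along rat chromosome 1 and not to scale. Bars start at 0 and give fresh TI minus fresh TII (green) and cultured TII minus fresh TII (orange), with ± SE of the limma fit. Cyp2b2 and Cyp2b15 rise to 1.97 and 1.25 in fresh TI cells, while Cyp2a3 and Cyp2f4 lie at -2.68 and -4.07.

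These 4 genes are neighbours. In the RefSeq gene order, chromosome 1 carries Cyp2b2, Cyp2b3, Cyp2b12, Cyp2b15, Cyp2g1, Cyp2a3, Cyp2a1, Cyp2a2 and Cyp2f4 within a run of 14 protein-coding genes. Of the 9 genes, 2 were at least 2-fold higher in fresh TI than in fresh TII cells, 2 were at least 2-fold lower, and the other 5 lay between 0.192 (Cyp2g1) and 0.398 (Cyp2b3). In culture the 4 fell, with differences of -0.494 (Cyp2b15) to -4.39 (Cyp2f4), and the other 5 lay between -0.174 (Cyp2a1) and 0.0798 (Cyp2b12) with none called. Cyp2a1 and Cyp2a2 lie between Cyp2a3 and Cyp2f4 on the chromosome and were not called in culture (-0.174, adjusted p = 0.305, and -0.172, adjusted p = 0.371). Cyp2a1 was called higher in fresh TI than in fresh TII cells (0.322, adjusted p = 0.0242), and Cyp2a2 was not called there (0.286, adjusted p = 0.0601).

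Cyp2c23 (Entrez gene 83790) encodes an epoxygenase of arachidonic acid best known from rat kidney. Its signal was 6.27, 6.40, 6.45 and 6.42 on the fresh TI arrays, 7.69, 7.26, 7.52 and 7.30 on the fresh TII arrays, and 5.75, 5.71 and 5.44 on the cultured arrays. The groups were ordered fresh TII, fresh TI, cultured TII, with no overlap. The signal was 2.08-fold lower in fresh TI than in fresh TII cells (-1.06 ± 0.104, adjusted p = 3.70e-06) and fell 3.51-fold in culture (-1.81 ± 0.112, adjusted p = 4.51e-08). Fresh TI cells lay above cultured cells by 0.751 ± 0.112 (adjusted p = 0.000123). The gene's probe sets did not all show this: a second gave -0.622 and -1.21 for the first 2 comparisons, both called, and the remaining one, with a mean signal of 4.21, gave 0.195 and 0.173, neither called.

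Cyp3a9 (Entrez gene 171352) encodes a steroid- and drug-oxidising enzyme of the 3A subfamily. Its signal was 5.20, 5.37, 5.32 and 5.33 on the fresh TI arrays, 6.42, 6.64, 6.46 and 6.61 on the fresh TII arrays, and 4.95, 4.999 and 5.07 on the cultured arrays. Only the fresh TII arrays lay above their own array medians. Fresh TI cells were 2.34-fold lower (-1.23 ± 0.0721, adjusted p = 2.88e-08) and cultured cells 2.88-fold lower (-1.53 ± 0.0779, adjusted p = 6.96e-09) than fresh TII cells. Fresh TI cells lay 0.301 ± 0.0779 above cultured cells (adjusted p = 0.00544).

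Cyp1b1 (Entrez gene 25426) encodes an enzyme that hydroxylates oestradiol and activates polycyclic hydrocarbons, and it is a known target of the receptor Ahr. It was the one P450 gene called higher in cultured than in fresh TII cells. Its signal was 5.87, 5.56, 5.496 and 6.05 on the fresh TI arrays, 5.20, 5.27, 5.22 and 5.32 on the fresh TII arrays, and 6.40, 6.35 and 5.99 on the cultured arrays. The fresh TII arrays lay below all others, while the lowest cultured array lay under the highest fresh TI array. The rise in culture was 1.99-fold (0.994 ± 0.135, adjusted p = 6.55e-05). Fresh TI cells were above fresh TII cells by 0.493 ± 0.125 (adjusted p = 0.00562), and below cultured cells (-0.501 ± 0.135, adjusted p = 0.00689). The other 3 probe sets of Cyp1b1 rose in culture by 1.005, 1.19 and 2.19, each called, whereas in fresh TI minus fresh TII cells 1 of them was called (0.324) and 2 were not (0.199 and 0.191). In that order their mean signals were 3.87, 3.33 and 2.95, and none lay above the median of any array. Ahr itself did not pass the test in culture (-0.0502 ± 0.104, adjusted p = 0.788).

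**Figure D3:**
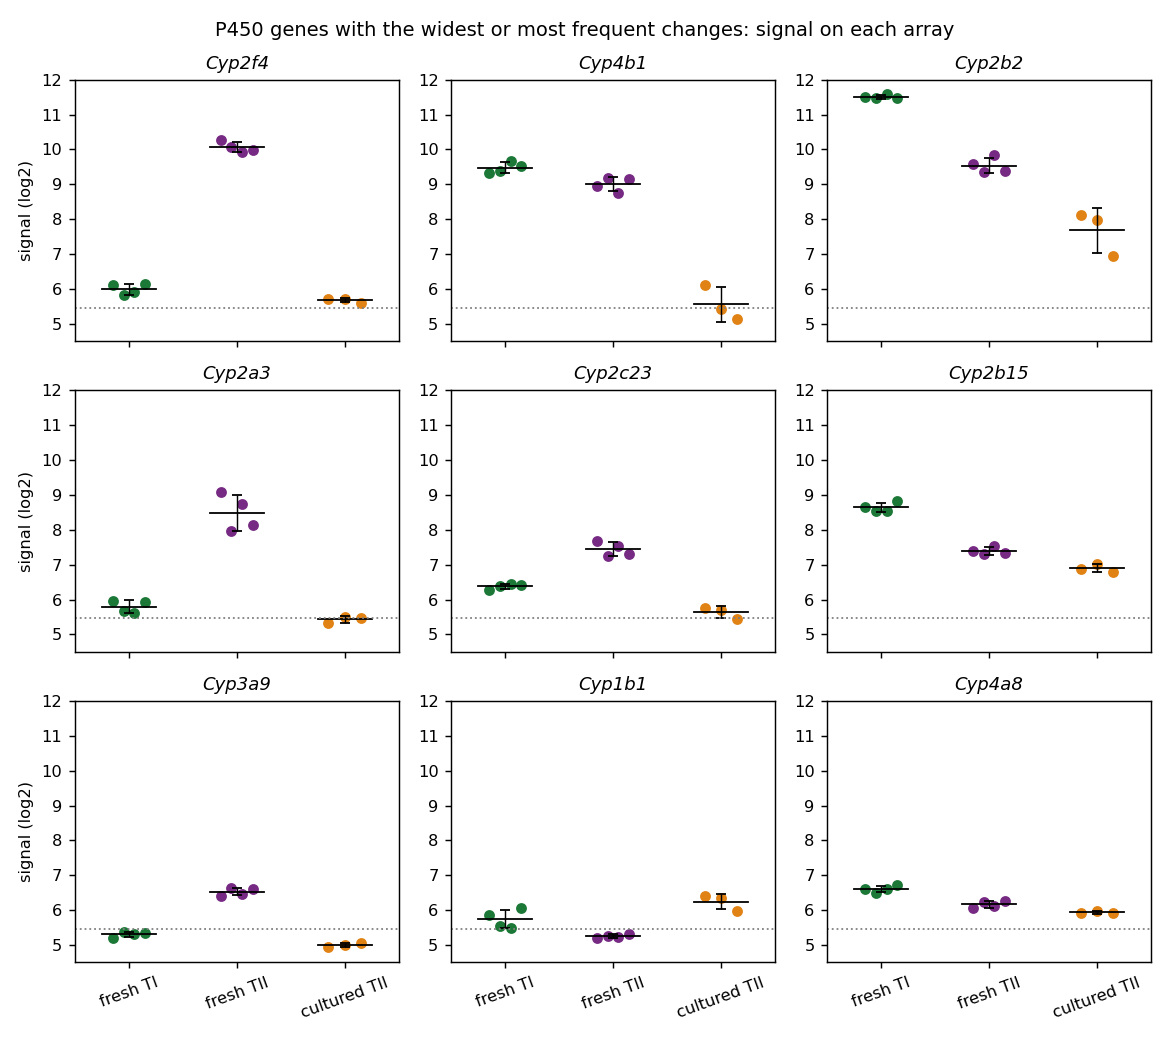
Log2 signal of the 9 P450 genes described array by array, with 1 point per array for the fresh TI (n = 4), fresh TII (n = 4) and cultured TII groups (n = 3). Horizontal lines are group means, vertical bars ± SD, and the dotted line is the mean array median of 5.46. Cyp2f4 and Cyp2a3 are high in fresh TII cells alone, Cyp4b1 is high in both fresh cell types, Cyp2b2 and Cyp2b15 are highest in fresh TI cells, and Cyp1b1 is highest on average in cultured cells.

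The other xenobiotic genes were called, where they passed, higher in fresh TI cells, and none passed in culture. Cyp3a23-3a1, an inducible drug-oxidising enzyme of the 3A subfamily, lay between 6.56 and 6.72 on fresh TI arrays, 5.88 and 6.23 on fresh TII arrays, and 5.97 and 6.11 on cultured arrays (0.578 ± 0.0805 in fresh TI minus fresh TII cells, adjusted p = 8.24e-05). Cyp2c11, known as the male-specific P450 of rat liver, lay between 5.86 and 6.09, 5.28 and 5.54, and 5.37 and 5.51 in the same groups (0.583 ± 0.0802, adjusted p = 7.41e-05). For both genes the fresh TI arrays lay above all others and the fresh and cultured TII arrays overlapped. Other probe sets of Cyp3a23-3a1 gave 1.16, 0.477 and 0.11 in fresh TI minus fresh TII cells, the last not called. Those of Cyp2c11 gave 0.3995, which was called, and 0.233, which was not.

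Cyp2c13 (0.474 ± 0.113, adjusted p = 0.00397), Cyp2c6v1 (0.418 ± 0.0665, adjusted p = 0.000245) and Cyp2b3 (0.398 ± 0.0999, adjusted p = 0.00534) were likewise higher in fresh TI than in fresh TII cells with no overlap. Another probe set of Cyp2c13 was called (0.591). Other probe sets of Cyp2c6v1 (0.513, adjusted p = 0.0641) and Cyp2b3 (0.0932 and 0.330, adjusted p = 0.329 and 0.0509) were not called. Cyp2d3 differed by 0.306 ± 0.093 (adjusted p = 0.015) with no overlap, and its signal was 4.96 to 5.03 on cultured arrays against 5.24 to 5.32 on fresh TII arrays, a difference of -0.272 that was not called (adjusted p = 0.054). Cyp2e1, the ethanol-oxidising enzyme, lay between 6.10 and 6.39 on fresh TI arrays and between 5.88 and 6.12 on fresh TII arrays, so these groups overlapped (0.295 ± 0.089, adjusted p = 0.0144). Its cultured arrays lay lower, between 5.66 and 5.82, but the difference from fresh TII cells was not called (-0.224, adjusted p = 0.0967). Other probe sets of Cyp2e1 gave 0.168 and 0.207 in fresh TI minus fresh TII cells, neither called. Cyp1a1, the classic Ahr target, was called in fresh TI minus fresh TII cells (0.327, adjusted p = 0.011) and not in culture (0.204, adjusted p = 0.152). Cyp2a1 lost its call in fresh TI minus fresh TII cells without any 1 of fresh TI arrays 1 and 4 and fresh TII arrays 1 and 2, at 0.223 to 0.312 (adjusted p = 0.0548 to 0.0663), and with array weights (0.202, adjusted p = 0.0594).

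Of the 10 fatty acid and eicosanoid oxidising genes, 8 were called higher in fresh TI than in fresh TII cells and 0 lower, beside 33.0% and 21.2% of all genes. In culture 2 fell, near the 14.0% of all genes called lower. Their median difference was 0.411 in fresh TI minus fresh TII cells and -0.0195 in cultured minus fresh TII cells. Cyp4b1 (Entrez gene 24307), which oxidises medium-chain fatty acids and activates furan toxins such as ipomeanol, had the widest change of the group. Its signal was 9.32, 9.39, 9.67 and 9.53 on the fresh TI arrays, 8.95, 9.17, 8.74 and 9.14 on the fresh TII arrays, and 6.13, 5.41 and 5.15 on the cultured arrays. Both fresh cell types were high, and all cultured arrays lay more than 2 units below them. The fall in culture was 10.8-fold (-3.44 ± 0.19, adjusted p = 1.48e-08), and fresh TI cells were 15.1-fold above cultured cells (3.91 ± 0.19, adjusted p = 7.18e-09).

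The difference in Cyp4b1 between the fresh cell types was small, at 0.476 ± 0.176 (adjusted p = 0.0364), although the groups did not overlap. It lost its call when 1 of 4 arrays was left out: fresh TI array 3 (0.412, adjusted p = 0.0869), fresh TI array 4 (0.457, adjusted p = 0.0681), fresh TII array 1 (0.459, adjusted p = 0.0786) or fresh TII array 3 (0.389, adjusted p = 0.101). Cyp4b1 lies on chromosome 5 beside the fatty acid hydroxylase genes Cyp4a8, Cyp4a3 and Cyp4a1, which were measured too. All 4 were called higher in fresh TI than in fresh TII cells, by 0.413 to 0.493. So were 36 of the 48 P450 genes and 33.0% of all genes. In culture the 4 genes differed from fresh TII cells by -0.227 (Cyp4a8), -0.072 (Cyp4a3), -0.124 (Cyp4a1) and -3.44 (Cyp4b1), of which the first and the last were called. Over all genes, 14.0% were called lower in culture.

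Cyp4a8 (Entrez gene 266674) was called in all 3 comparisons with small differences. Its signal was 6.62, 6.49, 6.60 and 6.71 on the fresh TI arrays, 6.06, 6.23, 6.12 and 6.25 on the fresh TII arrays, and 5.91, 5.99 and 5.92 on the cultured arrays. The groups did not overlap, although the closest fresh TII and cultured arrays were close together. Fresh TI cells were above fresh TII cells by 0.44 ± 0.0711 (adjusted p = 0.000277) and above cultured cells by 0.667 ± 0.0768 (adjusted p = 1.48e-05). The fall in culture (-0.227 ± 0.0768, adjusted p = 0.0368) lost its call without any 1 of the 3 cultured arrays or of fresh TII arrays 2, 3 and 4 (-0.198 to -0.253, adjusted p = 0.0502 to 0.108). A second probe set of Cyp4a8 was called in fresh TI minus fresh TII cells (0.646) and not in culture (-0.129).

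Cyp4a3 (0.493 ± 0.0966, adjusted p = 0.00114), Cyp4a1 (0.413 ± 0.0708, adjusted p = 0.000434) and Cyp4f4 (0.409 ± 0.0994, adjusted p = 0.00446) were higher in fresh TI than in fresh TII cells with no overlap. Cyp4f4 belongs to a subfamily that inactivates leukotrienes, and it was not called in fresh TI minus cultured cells (0.236, adjusted p = 0.0739). Cyp4f1, of the same subfamily, spread from 4.68 to 5.43 on fresh TI arrays and from 4.18 to 4.95 on fresh TII arrays, which overlapped (0.499 ± 0.177, adjusted p = 0.0307). That call was lost without any 1 of fresh TI arrays 1, 3 and 4 and fresh TII arrays 1 and 2 (0.334 to 0.519, adjusted p = 0.0531 to 0.0913), and also with either scaling of the arrays (0.433 and 0.432, adjusted p = 0.0602 and 0.0571) and with array weights (0.444, adjusted p = 0.0616). The difference between fresh TI and cultured cells (0.517, adjusted p = 0.0336) was lost without any 1 of the same fresh TI arrays or of the cultured arrays, and with either scaling or array weights (adjusted p = 0.0584 to 0.087 over these). Cyp2j3, an arachidonic acid epoxygenase, and Cyp4f17 were not called in any comparison.

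All 6 genes of bile acid, sterol, vitamin D and retinoid metabolism were called higher in fresh TI than in cultured TII cells, by 0.309 to 0.552, beside 34.2% of all genes called higher. Of the 6, 5 were called higher in fresh TI than in fresh TII cells, beside 33.0% of all genes, and in culture 0 of 6 were called, at differences of -0.216 to 0.0791. Cyp27a1, the mitochondrial sterol side-chain hydroxylase, lay between 8.34 and 8.58 on fresh TI arrays, 7.79 and 7.97 on fresh TII arrays, and 7.84 and 7.94 on cultured arrays. Fresh TI arrays lay above all others (0.538 ± 0.072, adjusted p = 5.88e-05), and the fresh and cultured TII arrays overlapped. A second Cyp27a1 probe set gave a wider difference, 1.08 in fresh TI minus fresh TII cells, and a called fall in culture (-0.284, adjusted p = 0.00843). Cyp24a1, which breaks down active vitamin D, was the member not called between the fresh cell types (0.132, adjusted p = 0.331). Its fresh TI and cultured arrays overlapped. Cyp7a1, the rate-limiting enzyme of bile acid synthesis, was called (0.297, adjusted p = 0.015), but a second probe set showed 0.0107 (adjusted p = 0.916). In fresh TI minus cultured cells, the second probe set of Cyp27a1 was called (1.36). Those of Cyp24a1 (0.0898, adjusted p = 0.395) and Cyp7a1 (-8.0e-05, adjusted p = 0.999) were not.

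Of the 5 steroid hormone synthesis genes, 3 were called higher in fresh TI than in fresh TII cells and 0 lower, beside 33.0% and 21.2% of all genes. In culture 0 were called, beside 20.5% higher and 14.0% lower over all genes. Cyp21a1, the adrenal steroid hydroxylase, lay between 6.86 and 7.16 on fresh TI arrays, 6.54 and 6.75 on fresh TII arrays, and 6.39 and 6.58 on cultured arrays (0.391 ± 0.0851 in fresh TI minus fresh TII cells, adjusted p = 0.00229). Cyp11b2, the aldosterone synthase, was not called between the fresh cell types (0.196, adjusted p = 0.107) and was called higher in fresh TI than in cultured cells (0.474 ± 0.106, adjusted p = 0.00228). Cyp19a1, the aromatase, was not called in any comparison. Of this group, Cyp21a1 alone lay above the array median.

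Small differences made up most of the calls. The 39 genes not given array by array differed by 0.0668 to 0.583 in fresh TI minus fresh TII cells. Of them, 31 were called higher and 0 lower, beside 33.0% and 21.2% of all genes. In culture they differed by -0.278 to 0.204 and 0 were called by limma, beside 20.5% higher and 14.0% lower over all genes. The 9 genes set apart were picked by their calls and include every gene called in culture. The narrow ranges and the 0 are therefore partly built in. Over all 48 genes, 12 had an unadjusted p under 0.05 in culture, 1 of them higher. Of the 48, 5 were called in no comparison: Cyp2g1, Cyp19a1, Cyp2j3, Cyp4f17 and Cyp3a18.

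The array medians lay between 5.43 and 5.51, with a mean of 5.46, and 22 of the 48 genes had a mean signal above it. They were Cyp2b2, Cyp4b1, Cyp27a1, Cyp2d4, Cyp2b15, Cyp4f6, Cyp2f4, Cyp2a1, Cyp24a1, Cyp21a1, Cyp2a3, Cyp2c23, Cyp2d2, Cyp4a1, Cyp3a23-3a1, Cyp4a8, Cyp2b3, Cyp2e1, Cyp1b1, Cyp3a9, Cyp2c11 and Cyp2g1. Just above the median lay Cyp2c11 at 5.61 and Cyp2g1 at 5.58, and just below it Cyp7a1 at 5.36. All 6 genes at least 2-fold apart between the fresh cell types, and all 9 called in culture, were among the 22. The 22 were picked by the mean over all groups, so a gene can enter through the group where it is high. Cyp3a9 lay above the array median on the fresh TII arrays alone, so its place among the 22 was set by the difference itself. Cyp1b1 lay above it on the fresh TI and cultured arrays and on none of the fresh TII arrays (5.20 to 5.32). That the called genes were among the 22 is therefore partly built in. The table holds no detection call, so it was not tested whether the dimmer genes were above background.

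The 26 genes below the median differed little between the groups, and the fresh TI arrays were not alike. The median signal of the 26 genes was 4.99 and 5.06 on fresh TI arrays 1 and 4, 4.76 and 4.77 on fresh TI arrays 2 and 3, 4.62 to 4.73 on fresh TII arrays and 4.63 to 4.74 on cultured arrays. Fresh TI arrays 1 and 4 stood apart. The median of all genes below the array median was also highest on these arrays, at 4.42 and 4.48, beside 4.38 on fresh TI arrays 2 and 3. This order was therefore shared with dim genes of all kinds. Between the fresh cell types, 20 of the 26 P450 genes were called higher in TI and 0 lower, with a median of 0.301, and in culture 0 were called. Over the 1997 genes of all kinds below the median, the median difference between the fresh cell types was 0.163, with 751 called higher and 218 lower. In culture, 202 of these 1997 were called higher and 184 lower. The fresh TI arrays had a narrower spread of signals (SD 1.77 to 1.85) than the fresh TII arrays (1.92 to 1.95) and the cultured arrays (1.95 to 1.97). Matching the SD of the arrays left 14 of the 26 called, with a median of 0.238, beside 0.0332 for all 1997 dim genes, of which 355 were then called higher and 354 lower. Quantile normalization also left 14 called, with a median of 0.227, beside 0.0567 for all dim genes, with 379 higher and 309 lower. In fresh TI minus cultured cells the 17 calls among the 26 became 11 under either scaling. Of all 1997 dim genes, 788 were called higher there as deposited, 372 with matched SD and 405 after quantile normalization. The 6 calls of 2-fold or more between the fresh cell types, the 6 in culture and the 3 in fresh TI minus cultured cells were all kept under both scalings.

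**Figure D4:**
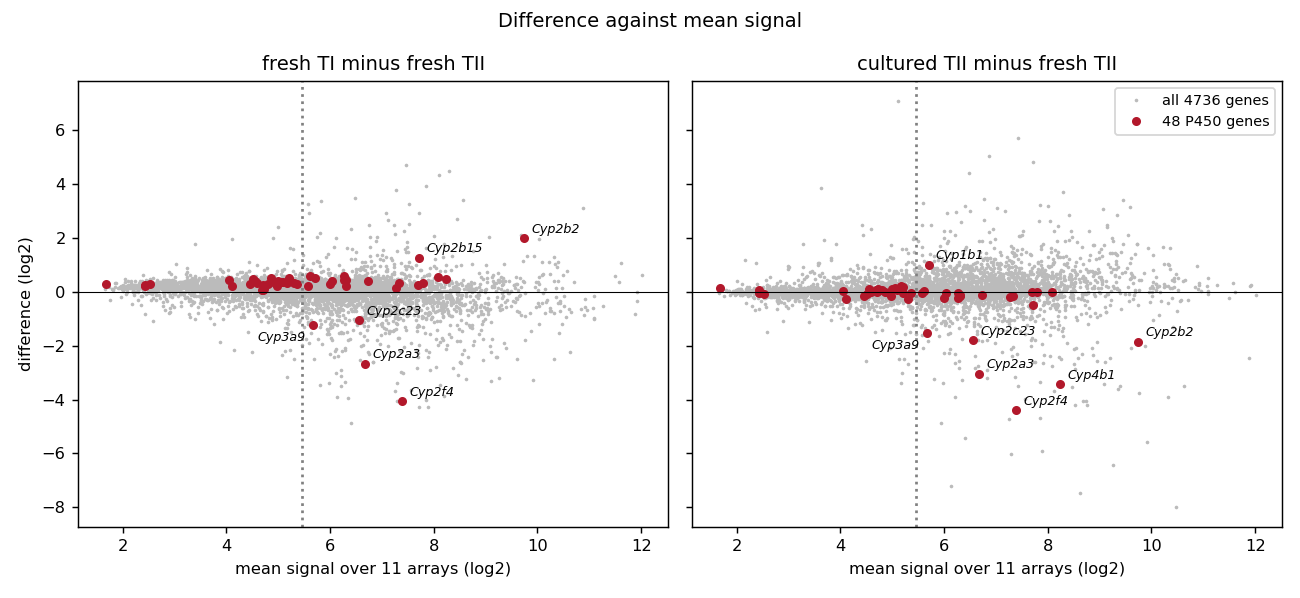
Log2 difference against mean log2 signal over 11 arrays for all 4736 genes (grey) and the 48 P450 genes (red), in fresh TI minus fresh TII cells and in cultured minus fresh TII cells. The dotted line is the mean array median of 5.46. To its left the P450 genes lie between 0.0668 and 0.499 between the fresh cell types and between -0.278 and 0.204 in culture.

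Of the genes, 20 had more than 1 single-gene probe set, which allowed a second reading. Between the fresh cell types, 17 called genes had 27 other probe sets, of which 15 were called in the same direction, 12 were not called and 0 were called in the opposite direction. In culture 5 called genes had 8 others, with 6 called the same way and 2 not called. Against cultured cells, 17 called genes had 27 others, of which 17 were called the same way and 10 were not. Probe sets of 1 gene share their arrays and RNA and are not replicates. By the array maker's naming, 25 of the 48 probe sets carried the suffix for probes shared between transcripts and 2 that for a gene family, so that signal from related genes cannot be separated there.

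**Figure D5:**
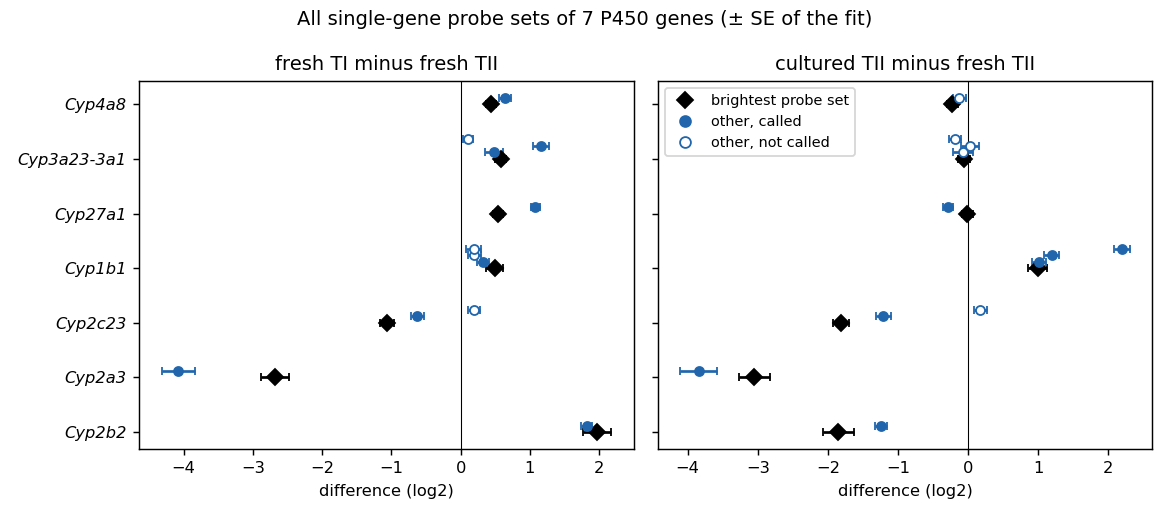
Log2 difference of every single-gene probe set of 7 P450 genes that were called and had more than 1. Black diamonds are the probe set that stood for the gene, blue circles the others, filled where called and open where not, and bars are ± SE of the limma fit. The Cyp2a3 and Cyp2b2 probe sets lie on the same side of 0, while 1 Cyp2c23 probe set lies at 0.195 and 0.173, away from the other two.

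P450 enzymes need electron donors and haem, and 13 of 20 genes on a list of these partners were measured. In fresh TI minus fresh TII cells 2 were called higher and 6 lower, in culture 3 higher and 4 lower, and in fresh TI minus cultured cells 2 higher and 6 lower. All genes were called higher and lower at 33.0% and 21.2% between the fresh cell types and at 20.5% and 14.0% in culture, and the 3 higher calls in culture lay near that share. Por, the reductase that feeds microsomal P450 enzymes, had signals of 8.27 to 8.62 on fresh TI arrays, 9.12 to 9.33 on fresh TII arrays and 8.25 to 8.58 on cultured arrays. It was lower in fresh TI (-0.763 ± 0.0978, adjusted p = 4.03e-05) and in cultured cells (-0.793 ± 0.106, adjusted p = 5.60e-05) than in fresh TII cells. Alas1, the first enzyme of haem synthesis, was also highest on the fresh TII arrays (7.77 to 8.15), with 5.59 to 5.85 on cultured and 4.34 to 5.25 on fresh TI arrays. Its differences from fresh TII cells were -3.14 ± 0.167 in fresh TI and -2.31 ± 0.18 in cultured cells.

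Hmox1, which degrades haem, was lower in fresh TI than in fresh TII cells (-2.13 ± 0.419, adjusted p = 0.00116) and rose in culture by 1.27 ± 0.452 (adjusted p = 0.047). Cyb5r3, the cytochrome b5 reductase, was higher in fresh TI than in fresh TII cells (0.999 ± 0.0834). Fdx1, the mitochondrial ferredoxin, was lower in fresh TI (-0.63 ± 0.133) and higher in cultured cells (0.685 ± 0.144). Alad, also of haem synthesis, fell in culture (-0.951). The list changed in both directions, with median differences of -0.308 in fresh TI minus fresh TII cells and 0.123 in culture.

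Among nuclear receptors and other regulators known to act on P450 genes, 34 of 39 were measured. In fresh TI minus fresh TII cells 10 were called higher and 5 lower, in culture 2 higher and 9 lower, and in fresh TI minus cultured cells 15 higher and 4 lower. Over all genes the shares called higher and lower were 33.0% and 21.2%, 20.5% and 14.0%, and 34.2% and 25.8% in the same comparisons, so the regulators' counts between the fresh cell types lay near those shares. The 4 widest called differences between the fresh cell types were in Nfe2l2 (-1.75), a regulator of antioxidant genes, Cebpd (-1.36), Dbp (-1.16), a clock-controlled factor, and Cebpa (-0.877). The widest called differences in culture were in Dbp (-1.33), Cebpa (-0.971), Pparg (0.783) and Nfe2l2 (-0.756). Against cultured cells, the widest called differences of fresh TI cells were in Nfe2l2 (-0.995), Cebpd (-0.805), Rara (0.742) and Foxa2 (-0.566). The C/EBP motif was found in 12 of 36 P450 promoter windows matched in RefSeq, which is 33.3% beside 9.22% of all windows. The corresponding shares were 12 of 36 beside 12.9% for the TATA box, 11 of 36 beside 11.7% for NKX2-1, 6 of 36 beside 25.9% for the Ahr core and 5 of 36 beside 3.21% for FOXA. Related genes share sequence, so these windows are not independent, and a match is not evidence of binding.

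Markers of other cells were read in the same way. Over all genes, 33.0% were called higher and 21.2% lower between the fresh cell types. In culture the shares were 20.5% and 14.0%, and in fresh TI minus cultured cells 34.2% and 25.8%. The macrophage and ciliated counts between the fresh cell types, and the fibroblast marker rises in culture, lay near those shares. Of 11 macrophage and leukocyte markers, 3 had a higher and 3 a lower call in fresh TI minus fresh TII cells, with 1 higher and 2 lower in culture, and 5 higher and 2 lower in fresh TI minus cultured cells. Their summed linear signal ran from 2481 to 7903 on fresh TI, from 9172 to 10660 on fresh TII and from 1495 to 2478 on cultured arrays. Lyz2 and Cd74 carried most of that sum, and both were called lower in fresh TI than in fresh TII cells, while Ptprc, Cd4 and Cd79b were called higher. Csf1r (0.211) and Itgam (-0.123) were not called between the fresh cell types. Of 8 endothelial markers, 5 were called higher in fresh TI than in fresh TII cells and 6 higher than in cultured cells, and 1 fell in culture. Their sums were 528.5 to 673.8 on fresh TI, 476.4 to 495 on fresh TII and 449.3 to 470.9 on cultured arrays. Of 12 fibroblast and smooth muscle markers, 6 were called higher in fresh TI than in fresh TII cells, 2 rose in culture, and against cultured cells fresh TI cells had 5 higher and 3 lower. Their sums were 1390 to 2571, 693.2 to 925.6 and 2084 to 2759 in the same order of groups. Tagln, at 10.22 to 10.60 on cultured arrays and 5.24 to 5.65 on fresh TII arrays, carried most of the cultured sum. Sums carried by so few genes do not measure how many such cells were present. Of 4 ciliated cell markers, 1 was called higher and 1 lower between the fresh cell types, 2 fell in culture and 0 differed between fresh TI and cultured cells. The part of these cells in the P450 differences was not tested.

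Measures of RNA condition differed between control genes. The 3′ minus 5′ log2 signal of the beta-actin control probe sets was -0.33 to -0.083 on cultured arrays and 0.324 to 0.431 on fresh TII arrays, a difference of -0.533 (exact permutation test, two-sided p = 0.0571, adjusted p = 0.129 over 9 tests). With 3 arrays against 4, an exact test cannot give a p below 0.0571. For GAPDH the difference was -0.134 with the same p. For hexokinase the cultured (1.13 to 1.21) and fresh TII arrays (1.04 to 1.28) overlapped, with a difference of -0.0247 (exact permutation p = 0.857). Fresh TI arrays lay above cultured arrays by 0.496 for beta-actin and 0.193 for hexokinase (exact permutation p = 0.0571 each). For GAPDH the difference was 0.164 (exact permutation p = 0.114). Fresh TI minus fresh TII gave -0.0375 for beta-actin, 0.03 for GAPDH and 0.168 for hexokinase (exact permutation p = 0.514, 0.657 and 0.0857). The part of RNA condition in the P450 differences of any comparison was not tested.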

How the data were processed

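The 11 arrays held total RNA of fresh TI cells (4 arrays), fresh TII cells (4) and cultured TII cells (3), grouped by their sample descriptions. The deposited table gives 1 log2 value per probe set and array, as made by the authors. Their summarisation, background correction and normalization are not given in the sources used here, and the log base was read from the range of the values (1.37 to 13.16). Values were used as deposited, with 0 columns left unmapped. The platform annotation gave 1 gene for 7006 probe sets, several for 308 and none for 1426, and only the first were used for genes.

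A model with 3 group means was fitted to 8740 probe sets with limma 3.58.1 in R 4.3.3 (lmFit and eBayes, two-sided), with Benjamini-Hochberg adjustment per comparison and no filter on dim signal. The code was tested on simulated data. The small number of arrays limits the precision. Control ratios were compared by exact permutation tests with scipy 1.17.1, and promoter windows were aligned with biopython 1.88.

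Genes were described array by array if called with a log2 difference of at least 1, or if called in all 3 comparisons and above the array median. The next called genes by size were added until 25 were named. Of each gene list, up to 4 called members per comparison were named. The members and lists were chosen with earlier results of these data known. The alternatives were 2 other scalings, a filter on dim probe sets, an intensity trend, fits on 2 groups, the replicate number as a block, array weights, the mean of a gene's probe sets, an adjusted p under 0.01 and leaving out each array. Replicate numbers gave no clear sign of pairing. Once group means were removed, same-numbered arrays of different groups correlated at -0.203 to 0.28 and differently numbered ones at -0.266 to 0.225. So few arrays cannot exclude pairing.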

Additional observations from a re-analysis of the deposited data

Results flagged for a closer look

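Of 50 sets of 4 arrays checked (the P450 genes described by their values, in fresh TI and fresh TII cells), 1 held an array far from the others. For Cyp2e1, the ethanol-oxidising enzyme, 1 fresh TII array had a log2 signal of 6.124, and the other 3 lay between 5.882 and 5.912. That gap made up 0.876 of the group's range, above Dixon's critical value for 4 samples. Chance flags about 1 in 20 such groups.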

How the results depend on the processing

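Under the alternatives tried, no called difference of a named P450 gene changed direction. The 15 named differences of at least 1 log2 unit kept their call in all 300 values computed. Of the 40 named differences under 1, 8 lost their call in 1 or more settings, 44 values in all. Testing only probe sets above the median, which leaves 22 P450 genes, gave 16 called higher in fresh TI minus fresh TII cells and 19 in fresh TI minus cultured cells. An adjusted p under 0.01 left 23 higher between the fresh cell types. Array weights gave 2 genes called higher in culture in place of 1 and 12 lower in place of 8, and a fit on the arrays of the 2 groups gave 11 lower. Leaving out 1 array at a time gave 29 to 37 higher and 4 lower between the fresh cell types, 1 higher and 7 to 10 lower in culture, and 31 to 38 higher and 1 lower in fresh TI minus cultured cells. A replicate block gave counts of 38 and 4, 1 and 7, and 35 and 1, and the small fall of Cyp4a8 in culture lost its call (-0.195, adjusted p = 0.102). The labels do not say that arrays of 1 number belong together. Signals under the array median and probe sets shared by related genes limit what can be said of single genes.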
